A study of Mus musculus with 2 samples.

Results

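Capillary and arterial endothelial genes were described in single cells sorted from mouse pancreas. The 10 genes were 7 associated with capillaries (Gpihbp1, Car4, Kdr, Plvap, Aplnr, Tcf15 and Cd300lg) and 3 associated with arteries (Sox17, Gja4 and Fbln5), of 14789 gene symbols in the table. They were described in an endothelial set, defined as cells with 3 or more unique molecular identifiers (UMIs, counted transcripts) of 5 general endothelial genes, Pecam1, Cdh5, Egfl7, Esam and Flt1, summed over the 5. This gave 176 of 728 cells, or 24.2% (21.1% to 27.5%), and the other 552 cells served for comparison. The 10 genes had been chosen by their measured levels, high in these cells and low elsewhere, so the contrast with other cells is a description, and so is the division of the set by the 3 arterial genes.

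All cells came from adult Tff2CreERT2; R26-tdTomato mice, in which the Tff2 promoter drives a tamoxifen-activated Cre recombinase that switches on a red fluorescent reporter for good. The mice had received tamoxifen, and red cells of the digested pancreas were sorted as EpCAM-positive and negative for CD45 and TER119. The labels give 2 biological replicates of this 1 group, with no untreated or reporter-negative group. The table does not tie cells to replicates, so it was handled as 1 pooled sample, which leaves no test across replicates. The 95% intervals are exact, cover counting error only and treat UMIs as independent, which UMIs of 1 cell are not.

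The endothelial set held 423017 UMIs, with a median of 1870.5 per cell (1007 to 11453), and the other cells held 1929991 UMIs, with a median of 2213.5 (1004 to 53222). Barcodes of the set ended in 1 in 175 cells and in 2 in 1 cell, against 492 and 60 of the other cells. Of the set, 168 cells lay in the endothelial-like cluster of 172 cells, and the 8 elsewhere showed a median of 1 of the 10 genes. The labels describe sorted Tff2+ epithelial cells, whereas the set was chosen on endothelial genes. Epcam was seen in 3 of its 176 cells, but also in only 12 of 266 acinar-like cells outside the set, and in 33 of 35 ductal-like ones. Ptprc (CD45) was seen in 3 set cells and Tff2 in 45. Tff2 was also seen in 16 of 87 T or NK-like cells outside the set (median depth 2465 UMIs), and acinar marker genes made up 2.93% of the UMIs of the set and 40.2% of those of other cells. The ratios of the 10 genes were also computed with acinar marker UMIs left out of the totals, as given below. Whether this acinar RNA bears on their values in other ways was not tested.

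Capillaries are the exchange vessels of a tissue, and those of the pancreas are fenestrated: their endothelial cells carry small pores closed by protein diaphragms. Arterial endothelial cells line the feeding vessels and differ in their transcription factors, gap junction proteins and attachment to elastic matrix. VEGF signalling through Kdr maintains fenestrated capillaries, and Notch signalling with Sox17 favours arterial identity.

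Promoter sequences are shown for 4 of the 10 genes, the capillary genes Car4 and Kdr and the arterial genes Gja4 and Fbln5, so that windows from both groups can be read side by side. They are RefSeq windows of build GRCm38.p6, from 250 bases before to 50 bases after the transcription start, printed 5′ to 3′ on the gene's strand. The 4 genes were those with an entry in the table used, and Gpihbp1, Plvap, Aplnr, Tcf15, Cd300lg and Sox17 were not matched. Capitals mark 2 short motifs on either strand: CCGGAA (reverse TTCCGG), a core bound by ETS factors, and ACAAT (reverse ATTGT), a core bound by SOX factors. The windows are Car4 at chr11:84957504-84957803 (plus strand), Kdr at chr5:75978406-75978705 (minus strand), Gja4 at chr4:127313990-127314289 (minus strand) and Fbln5 at chr12:101819070-101819369 (minus strand).
Car4: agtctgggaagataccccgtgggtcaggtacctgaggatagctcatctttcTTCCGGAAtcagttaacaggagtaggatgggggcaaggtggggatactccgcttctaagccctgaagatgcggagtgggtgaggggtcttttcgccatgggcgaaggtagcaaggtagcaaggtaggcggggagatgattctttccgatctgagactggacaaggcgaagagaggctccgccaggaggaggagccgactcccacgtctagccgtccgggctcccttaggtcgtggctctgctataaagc
Kdr: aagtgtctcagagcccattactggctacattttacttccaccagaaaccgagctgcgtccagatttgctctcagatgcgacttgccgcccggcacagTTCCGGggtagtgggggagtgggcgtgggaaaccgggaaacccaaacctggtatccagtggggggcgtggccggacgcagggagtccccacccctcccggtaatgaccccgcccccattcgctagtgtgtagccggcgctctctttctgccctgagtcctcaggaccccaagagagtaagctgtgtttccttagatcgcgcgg
Gja4: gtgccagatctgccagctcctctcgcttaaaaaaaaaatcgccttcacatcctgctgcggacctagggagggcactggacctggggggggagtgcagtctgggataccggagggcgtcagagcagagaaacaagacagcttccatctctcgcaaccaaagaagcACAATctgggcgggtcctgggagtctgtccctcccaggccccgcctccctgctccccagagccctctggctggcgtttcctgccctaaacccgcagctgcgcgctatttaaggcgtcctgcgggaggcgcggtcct
Fbln5: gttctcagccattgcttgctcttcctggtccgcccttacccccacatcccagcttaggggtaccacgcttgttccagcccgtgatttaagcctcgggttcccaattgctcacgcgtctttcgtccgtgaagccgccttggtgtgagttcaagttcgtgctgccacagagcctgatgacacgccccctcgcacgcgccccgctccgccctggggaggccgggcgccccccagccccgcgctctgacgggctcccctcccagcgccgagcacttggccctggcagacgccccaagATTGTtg
The 6-letter ETS core was searched because its inner GGAA occurs in 96.0% of all 32851 windows. The Car4 window holds CCGGAA on both strands within a single overlapping match, at -199 and -197 from the start, and the Kdr window holds it once at -153, whereas the Gja4 and Fbln5 windows hold none. The ACAAT core is found once in the Gja4 window, at -86, and once in the Fbln5 window, at 44 after the start, and in neither capillary window. A window around a second Fbln5 start holds neither motif. Over all windows of this length, 14.9% hold CCGGAA and 31.0% hold ACAAT, and none of the matches shown overlaps a match of the other motif. These are matches of letters, and no binding was measured.

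The rule genes were themselves abundant in the set. Its cells held between 3 and 70 UMIs of the 5 rule genes, with a median of 15. The 7 cells at the limit, with 3 rule UMIs, held 24 UMIs of the 10 genes, and 4 of the 7 showed at least 1 of them. The 8 cells just outside, with 2 rule UMIs, held 4 UMIs, and 2 of the 8 showed any. Each of the 167 cells with 6 or more rule UMIs showed at least 1 of the 10 genes, with a median of 6.

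All 10 genes were at least 2-fold higher in the endothelial set than in the other cells, among genes with 50 or more UMIs over both groups. Of the 3615 such genes, 62.7% were 2-fold higher and 8.69% were 2-fold lower by the same rule, so passing 2-fold says little by itself. The sizes stood further apart: the median log2 ratio was 9.07 over the 10 genes (8.71 with Aplnr, absent from the other cells, at its bound) and 1.33 over all genes tested. Of 4101 UMIs of the 10 genes in the whole table, 98.5% lay in the set, which held 18.0% of all UMIs. The background median of 1.33 fell to 0.64 when acinar marker UMIs were left out of the totals, and to 0.94 when each cell was thinned to 1000 UMIs. The ratios of all 10 genes also fell without acinar marker UMIs, for example Car4 from 9.92 to 9.22 and Fbln5 from 3.21 to 2.51. Thinning moved them both ways, with Gpihbp1 at 7.45 instead of 9.05 and Fbln5 at 5.27. Levels in the set and in other cells chose the genes, so the values are given below as a description and no conclusion is drawn from them.

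**Figure D1:**
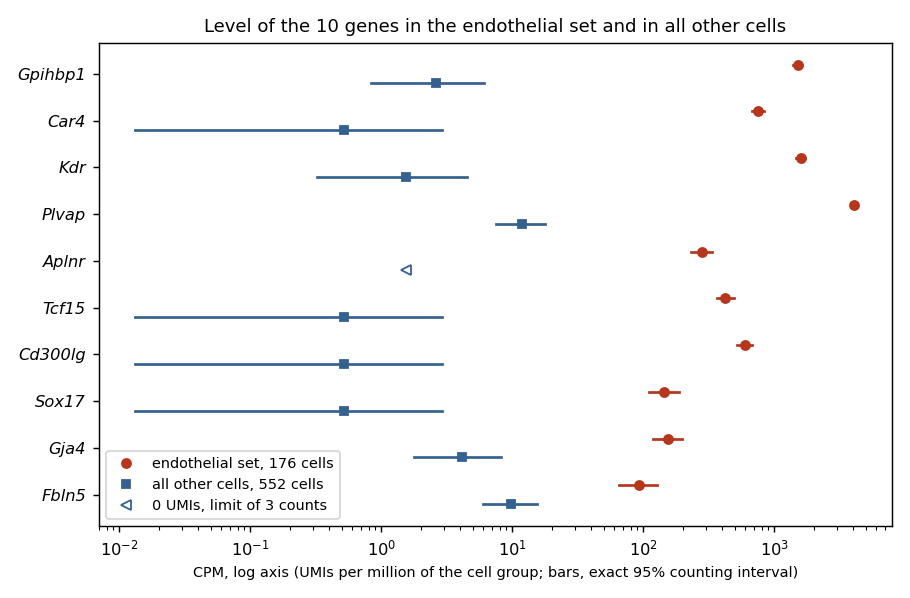
Level of each of the 10 genes in counts per 1e6 UMIs of the cell group (CPM, log axis) in the 176 cells of the endothelial set (red circles) and in the 552 other cells (blue squares), with exact 95% counting intervals. The open triangle marks Aplnr, which had 0 UMIs in other cells, at the limit of 3 counts. All 10 red circles lie to the right of the blue symbols, with the narrowest gaps for Gja4 and Fbln5.

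Gpihbp1 (chr15:75596628-75599481, plus strand, GRCm38) encodes a membrane-anchored protein that carries lipoprotein lipase across the capillary wall and holds it at the lumen. It had 637 UMIs in 144 of the 176 set cells (81.8%, 75.3% to 87.2%), or 1506 counts per 1e6 UMIs (CPM), against 5 UMIs in 5 of the other 552 cells, or 2.59 CPM. The log2 ratio was 9.05 (7.95 to 10.81). Within the set the median cell held 3 UMIs and the highest 27, and 56 cells held 5 or more. The 10 highest cells held 21.4% of its UMIs, so its signal was spread over most of the set.

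Car4 (chr11:84957786-84966044, plus strand) encodes a membrane-anchored carbonic anhydrase of the capillary lumen, which interconverts carbon dioxide and bicarbonate. It had 317 UMIs in 99 set cells (56.2%, 48.6% to 63.7%), or 749 CPM, against 1 UMI in the other cells, or 0.518 CPM, a log2 ratio of 9.92 (8.01 to 15.81). The median set cell held 1 UMI and the highest 10. The 99 cells with Car4 and the 77 without it had median depths of 1904 and 1759 UMIs, and thinning each cell to 1000 UMIs left Car4 in 42.6% of the set.

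Kdr (chr5:75932827-75978458, minus strand) encodes the main signalling receptor for VEGF-A. Its 672 UMIs lay in 151 set cells (85.8%, 79.7% to 90.6%), or 1589 CPM, against 3 UMIs in 3 other cells, or 1.55 CPM, a log2 ratio of 9.78 (8.44 to 12.28). The median set cell held 3 UMIs and the highest 16. Plvap (chr8:71497765-71511752, minus strand) encodes the protein of the diaphragms that close fenestrae and caveolae. It was seen in 170 of the 176 set cells (96.6%, 92.7% to 98.7%) with 1701 UMIs, or 4021 CPM, against 23 UMIs in 20 other cells, or 11.9 CPM. Its log2 ratio was 8.37 (7.81 to 9.06), the median set cell held 8 UMIs and the highest 53. Of the 10 genes, Plvap was seen in the most set cells, and it also had the most UMIs outside the set.

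Aplnr (chr2:85136225-85139923, plus strand) encodes the receptor for the peptide apelin and is known from veins and from some capillaries. It had 118 UMIs in 60 set cells (34.1%, 27.1% to 41.6%), or 279 CPM, against 0 UMIs in the other 552 cells, which allows up to 1.55 CPM there at 3 counts over the group. At that bound it was 179-fold higher in the set, and the lower limit of the exact interval was 144-fold. The median set cell held none and the highest 8, and the 60 cells with it were deeper than the 116 without it, with medians of 2241 and 1684 UMIs. Thinned to 1000 UMIs per cell, Aplnr remained in 18.8% of the set, so its share of cells depends on depth.

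Tcf15 (chr2:152143561-152149097, plus strand) encodes a basic helix-loop-helix transcription factor that, in mouse heart capillaries, takes part in fatty acid uptake. It had 178 UMIs in 93 set cells (52.8%, 45.2% to 60.4%), or 421 CPM, against 1 UMI in the other cells, a log2 ratio of 9.08 (7.17 to 14.98). Cd300lg (chr11:102041509-102055620, plus strand), which encodes an immunoglobulin-type receptor of endothelial cells, had 251 UMIs in 117 set cells (66.5%, 59.0% to 73.4%), or 593 CPM, against 1 UMI in the other cells. Its log2 ratio was 9.58 (7.67 to 15.47). No set cell held more than 6 UMIs of Tcf15 or 8 of Cd300lg, and both were thus read mostly as present or absent per cell.

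Sox17 (chr1:4490931-4497354, minus strand) encodes an HMG-box transcription factor required for arterial identity in mouse. It had 61 UMIs in 38 set cells (21.6%, 15.8% to 28.4%), or 144 CPM, against 1 UMI in the other cells, a log2 ratio of 7.55 (5.59 to 13.45). Gja4 (chr4:127311421-127314039, minus strand) encodes a gap junction connexin of arterial endothelium. It had 65 UMIs in 40 set cells (22.7%, 16.8% to 29.6%), or 154 CPM, against 8 UMIs in 5 other cells, or 4.15 CPM, a log2 ratio of 5.14 (4.15 to 6.48).

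Fbln5 (chr12:101746565-101819055, minus strand) encodes a matrix protein that links cells to elastic fibres. It had 39 UMIs in 20 set cells (11.4%, 7.08% to 17.0%), or 92.2 CPM, against 19 UMIs in 12 other cells, or 9.84 CPM, a log2 ratio of 3.21 (2.40 to 4.10). Each arterial gene rested on few UMIs, and the 10 highest cells held 74.4% of those of Fbln5, 47.5% of those of Sox17 and 46.2% of those of Gja4. Such shares are high at low counts and were not compared with those of the capillary genes. No set cell held more than 7 UMIs of any arterial gene.

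Outside the set, the little signal there was fell mainly to 3 genes. Fbln5 had 15 of its 19 outside UMIs in the 16 mesenchymal-like cells, where 9 cells (56.2%) showed it at 272 CPM (153 to 449). Those cells are named from Col1a1, Dcn, Lum and other matrix genes, and they were the deepest but for erythroid-like cells, with a median of 3586 UMIs. Plvap had 6 UMIs in 4 of these 16 cells, or 109 CPM (40.0 to 237), and 11 UMIs in 10 of 266 acinar-like cells, or 9.48 CPM. The other 8 genes had no UMI in mesenchymal-like cells, which allows up to 54.5 CPM at 3 counts.

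Gja4 outside the set pointed to a few cells with mural (pericyte or smooth muscle) markers. Of its 8 outside UMIs, 5 lay in 2 cells that held 11 and 20 UMIs of the pericyte gene Rgs5 and 0 and 2 UMIs of the rule genes. Both lay in the endothelial-like cluster. Gja4 was otherwise seen in 2 acinar-like cells and 1 erythroid-like cell, with 1 UMI each. Within the set, 19 cells held 3 or more UMIs of the 7 mural markers, and Gja4 was in 5 of these 19 cells and in 35 of the other 157. By level Gja4 was at 157 CPM in the 19 cells and 153 CPM in the other 157. Without the 19 cells its log2 ratio over other cells was 5.13, against 5.14 with them. What mural RNA adds to Gja4 within a cell was not tested.

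**Figure D2:**
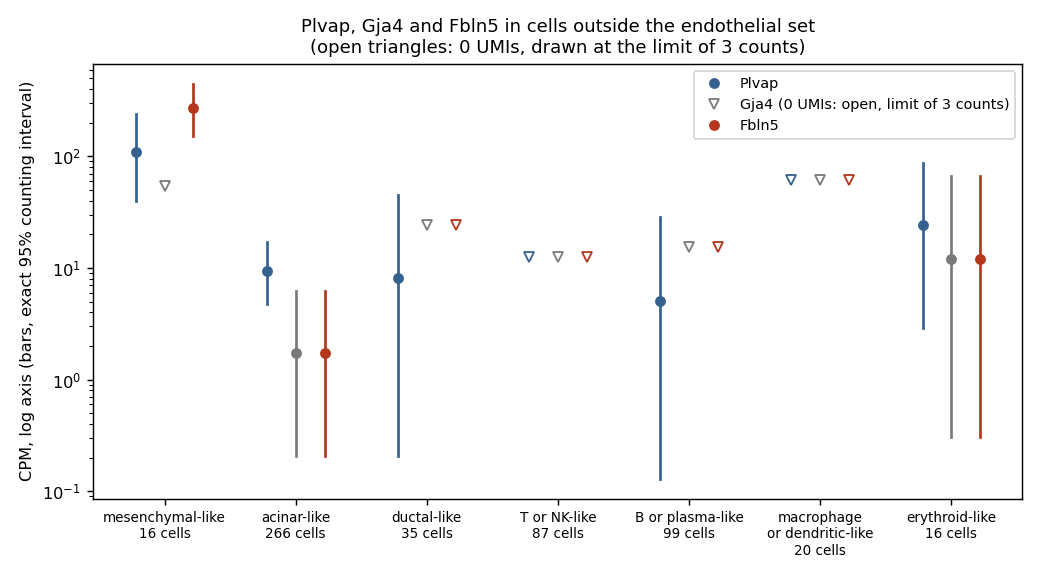
CPM (log axis) of Plvap, Gja4 and Fbln5 in 7 classes of cells outside the endothelial set, with exact 95% counting intervals; open triangles mark 0 UMIs at the limit of 3 counts, and the 13 unnamed and endothelial-like cells outside the set are not drawn. Fbln5 and Plvap are highest in the 16 mesenchymal-like cells, at 272 and 109 CPM.

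Most set cells showed several capillary genes at once. The median cell showed 5 of the 7, and 143 of the 176 cells (81.2%) showed 4 or more, while 16 cells showed all 7. At the other end, 3 cells showed none of the 10 genes. None of the 3 arterial genes was seen in 113 cells, 1 of them was seen in 36, 2 in 19 and all 3 in 8. Each of the 63 cells with an arterial gene also showed at least 1 capillary gene, as did all but 3 of the 113 cells without one. Plvap alone was in 170 of the 176 set cells, so nearly any set cell would show a capillary gene.

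Pairs of genes were compared by the share of cells with the first gene among cells with and without the second. For all 21 pairs of capillary genes the share was higher among cells with the second gene than among cells without it, with a median difference of 15.8 percentage points (0.674 to 50.2). Car4, for example, was in 93 of the 151 cells with Kdr (61.6%) and in 6 of the 25 without it (24.0%). Cells with a gene were deeper than cells without it for 9 of the 10 genes, and thinning to 1000 UMIs left 17 of the 21 pairs above 0, with a median of 9.56 points. The 4 pairs that changed side were Aplnr with Car4, Tcf15 and Cd300lg, and Plvap with Cd300lg. Unthinned, Car4 was in 60.0% of the cells with Aplnr and in 54.3% of those without it. Thinned, it was in 8 of 33 cells with Aplnr (24.2%, 11.1% to 42.3%) and in 67 of 143 without it (46.9%, 38.5% to 55.4%).

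For all 3 pairs of arterial genes the share was higher with the second gene, both before and after thinning, with median differences of 49.0 and 39.0 points. Gja4 was in 14 of the 20 cells with Fbln5 (70.0%, 45.7% to 88.1%) and in 26 of the 156 without it (16.7%, 11.2% to 23.5%). Sox17 was in 13 of the 20 cells with Fbln5 (65.0%) and in 25 of the 156 without it (16.0%). It was also in 16 of the 40 cells with Gja4 (40.0%) and in 22 of the 136 without it (16.2%). Depth did not run with Fbln5, whose cells had a median of 1692.5 UMIs, against 1878 in cells without it.

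Between the capillary and the arterial genes, the share was lower with the second gene for 14 of 21 pairs, with a median difference of -7.59 points over the 21 (-46.5 to 7.79), and for 13 of 21 after thinning. All 6 pairs of Car4 or Aplnr with an arterial gene were at -14.7 points or lower, and at -7.24 or lower after thinning. Of the 7 pairs above 0, 3 were those of Plvap, 2 those of Tcf15, and the others were Gja4 with Kdr and with Cd300lg.

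Car4 was in 3 of the 20 cells with Fbln5 (15%, 3.21% to 37.9%), against 96 of the 156 without it (61.5%, 53.4% to 69.2%). Aplnr was in 1 of the 20 (5.00%, 0.127% to 24.9%), against 59 of the 156 (37.8%, 30.2% to 45.9%). The exclusion was not complete for either gene. Car4 was in 17 of the 38 cells with Sox17 (44.7%), against 82 of the 138 without it (59.4%), and in 17 of the 40 with Gja4 (42.5%), against 82 of the 136 without it (60.3%). Aplnr was in 7 of the 38 cells with Sox17 (18.4%), against 53 of the 138 without it (38.4%), and in 8 of the 40 with Gja4 (20.0%), against 52 of the 136 without it (38.2%). After thinning, 1 of the 12 cells in which Fbln5 was still seen showed Car4 and 0 of the 12 showed Aplnr, for which the interval reaches 26.5%.

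Plvap behaved otherwise. It was in 20 of 20 cells with Fbln5, 38 of 38 with Sox17 and 39 of 40 with Gja4, against 150 of 156, 132 of 138 and 131 of 136 without them. Kdr was in 36 of the 40 cells with Gja4 (90.0%), against 115 of the 136 without it (84.6%), but in 29 of the 38 with Sox17 (76.3%), against 122 of the 138 without it (88.4%). Gpihbp1 was in 12 of the 20 cells with Fbln5 (60.0%), against 132 of the 156 without it (84.6%). Tcf15 differed little with any arterial gene, by -3.21 to 3.09 points.

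**Figure D3:**
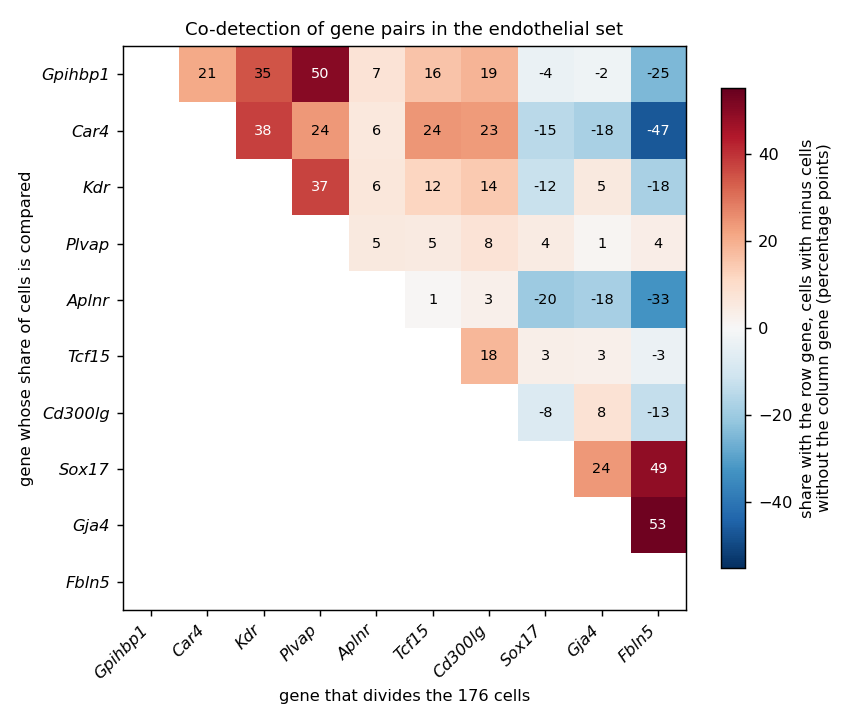
Difference in percentage points between the share of cells with the row gene among set cells with the column gene and among set cells without it, for all 45 pairs in the 176 cells; red is a higher share with the column gene and blue a lower one. The 3 arterial columns are blue for Car4, Aplnr and Gpihbp1, down to -46.5 points for Car4 with Fbln5, and red where they meet each other.

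The set was then divided by the arterial genes. Arterial-gene cells were the 33 set cells with 2 or more UMIs of Sox17, Gja4 and Fbln5 together (18.8% of the set), with 79647 UMIs and a median depth of 1806, and the other 143 cells held 343370 UMIs with a median of 1871. General endothelial genes were seen in both groups. Of the 16 genes of the pan-endothelial list with 50 or more UMIs in the set, none was 2-fold higher or lower. Of all 1353 genes with 50 or more UMIs, 2.14% were higher and 4.43% lower, so none of 16 is near that share. The summed list stood at 9806 CPM in arterial-gene cells and 10056 CPM in the others. Smaller shifts went both ways: intervals of the log2 ratio lay below 0 for Cd34 (-0.89), Clec14a (-0.63) and Emcn (-0.46). They lay above 0 for Icam2 (0.71), Ecscr (0.59) and Ptprb (0.43). Acinar marker genes made up 1.60% of the UMIs of arterial-gene cells and 3.24% of those of the others. Sox17, Gja4 and Fbln5 chose the cells and were left out of every count.

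Of the 7 capillary genes, 2 were at least 2-fold lower in arterial-gene cells, Car4 and Aplnr, and none was higher. Of the 1353 genes with 50 or more UMIs in the set, 4.43% were 2-fold lower and 2.14% were 2-fold higher by the same rule. The median log2 ratio was -0.05 over the 7 genes and 0.06 over all 1353.

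Aplnr had 6 UMIs in 3 of the 33 arterial-gene cells (9.09%, 1.92% to 24.3%), or 75.3 CPM, against 112 UMIs in 57 of the other 143 (39.9%, 31.8% to 48.4%), or 326 CPM. The log2 ratio was -2.01 (-3.59 to -0.95). Car4 had 24 UMIs in 11 arterial-gene cells (33.3%, 18.0% to 51.8%), or 301 CPM, against 293 UMIs in 88 of the others (61.5%, 53.0% to 69.5%), or 853 CPM. The log2 ratio was -1.47 (-2.17 to -0.90). Single cells overlapped: Car4 reached 33.2 UMIs per 10000 in arterial-gene cells, with a median of 0, and 60.4 in the others, with a median of 6.27. Both genes kept their side of 2-fold in 14 of 14 alternatives, though with Aplnr between -3.46 and -1.09 and Car4 between -2.26 and -1.17. Some of the 14 could not move these ratios, since the floor does not enter them and no set cell had a shared barcode. The weakest Aplnr value came from counting every cell with 1 or more arterial UMIs, 63 cells in all, as arterial. The strongest came from thinning, which left Aplnr with 45 UMIs, under the floor, so it was not counted there.

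Plvap stood between. It was in all 33 arterial-gene cells and in 137 of the other 143, at 2938 CPM (2574 to 3340) and 4272 CPM (4057 to 4497), a log2 ratio of -0.54 (-0.75 to -0.34) that did not reach 2-fold in any alternative. The median cell held 33.5 and 46.0 UMIs per 10000 in the 2 groups, and the values of single cells overlapped.

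For the other 4 capillary genes the ratios lay near 0, with intervals inside 2-fold. Gpihbp1 had 1456 CPM in arterial-gene cells and 1517 CPM in the others (log2 ratio -0.05, -0.36 to 0.23), and Kdr had 1569 and 1593 CPM (-0.02, -0.31 to 0.26). Tcf15 had 439 CPM in arterial-gene cells and 416 CPM in the others (0.09, -0.50 to 0.62), and Cd300lg had 590 and 594 CPM (0.00, -0.50 to 0.45). Gpihbp1 was less even by cell than by sum: of its 116 UMIs in arterial-gene cells, 1 cell held 27 and another held 23. The median cell had 9.76 UMIs per 10000 in arterial-gene cells and 15.1 in the others, and thinning moved its log2 ratio to -0.84. Its ratio near 0 thus leaned on few cells. Summed over the 7 genes, arterial-gene cells held 7370 CPM and the others 9573 CPM, a log2 ratio of -0.38 (-0.51 to -0.25).

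**Figure D4:**
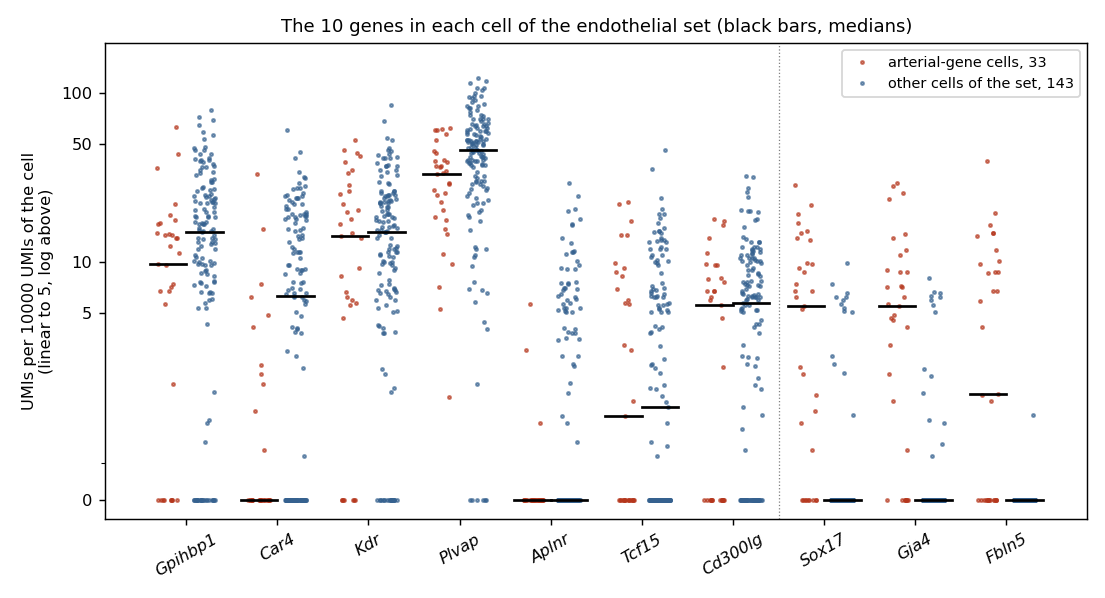
UMIs per 10000 UMIs of the cell for each of the 10 genes in the 33 arterial-gene cells (red, left of each pair) and the 143 other cells of the endothelial set (blue); each point is a cell, black bars are medians, and the axis is linear up to 5 and logarithmic above. For Car4 and Aplnr most red points lie at 0, and for Plvap none do; Sox17, Gja4 and Fbln5, right of the dotted line, were used to choose the red cells.

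Mural markers moved in part with this division. They were at 967 CPM in arterial-gene cells and 379 CPM in the others, with 5 of the 7 markers seen in arterial-gene cells (Acta2 and Tagln at 0), and 4 of the 33 arterial-gene cells and 15 of the other 143 held 3 or more mural UMIs. Gja4 was in all 4 of those arterial-gene cells. Without the 19 mural-marker cells, a check added after the data were seen, 29 arterial-gene cells remained and the log2 ratios were -2.05 for Car4 and -1.77 for Aplnr. Without 17 set cells that held 3 or more UMIs of T or NK, B or plasma, macrophage or dendritic, mesenchymal, ductal or erythroid markers (mixed cells below), Car4 was at -1.49 and Aplnr at -2.03. Acinar RNA was not removed by this check, since all 176 cells held 3 or more acinar UMIs.

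Other genes of the arterial list were mixed in the arterial-gene cells. Of the 5 genes of the arterial list with 50 or more UMIs in the set, 1 was 2-fold higher, Tm4sf1, a surface protein of endothelial cells, at 2511 CPM in arterial-gene cells and 952 CPM in the others (log2 ratio 1.40, 1.14 to 1.66). Cxcl12, a chemokine of arterial endothelium, was just under 2-fold at 1369 and 696 CPM (0.98, 0.64 to 1.31). Clu was 2-fold lower at -2.80, but 66.2% of its UMIs came from 1 cell. Without the mixed cells it was at -0.57, though Clu is itself a ductal marker that picks those cells. Fbln2, at 0.46 (-0.14 to 1.00), and Ltbp4, at 0.29 (-0.13 to 0.68), both matrix proteins, did not pass. The sum of the 17 listed genes stood at 7056 CPM in arterial-gene cells and 3454 CPM in the others, a log2 ratio of 1.03, with Tm4sf1 and Cxcl12 holding 200 and 109 of the 562 UMIs in arterial-gene cells.

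Below the 50-UMI limit, and so outside the counts, several textbook arterial genes lay on the same side. The ligand Efnb2 was in 15 of 33 arterial-gene cells (45.5%) and in 17 of the other 143 (11.9%), a log2 ratio of 2.42 (1.52 to 3.35). The Notch ligand Dll4 was in 10 and 20 cells, at 213 and 61.2 CPM (1.81, 0.79 to 2.80), and the Notch target Hey1 in 11 and 11 cells, at 188 and 37.9 CPM (2.31, 1.14 to 3.51). Sema3g had 13 UMIs in arterial-gene cells and 9 in the others (2.62, 1.30 to 4.04). Stmn2, a microtubule regulator, had 29 UMIs in 16 arterial-gene cells and 11 in 5 others (3.47, 2.46 to 4.66). Eln, which encodes elastin, was at -0.15, and Gja5 and Bmx, also textbook arterial genes, had 1 and 2 UMIs in the whole set.

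**Figure D5:**
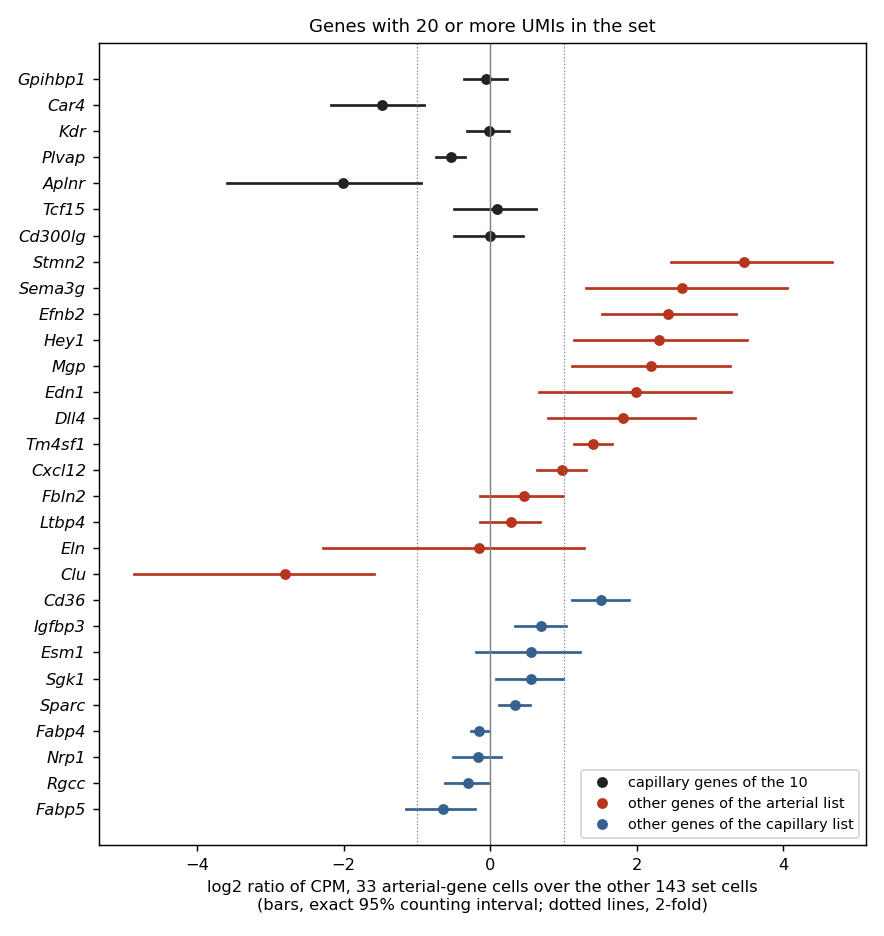
Log2 ratio of CPM, the 33 arterial-gene cells over the other 143 cells of the set, for the 7 capillary genes of the 10 (black) and for other genes of the arterial (red) and capillary (blue) lists with 20 or more UMIs in the set; bars are exact 95% counting intervals and dotted lines mark 2-fold. Car4 and Aplnr lie left of the 2-fold line, Plvap at -0.54, the other 4 capillary genes near 0, and Stmn2, Sema3g, Efnb2 and Hey1 to the right.

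Of the 9 genes of the capillary list with 50 or more UMIs, none was 2-fold lower in arterial-gene cells and 1 was higher, the fatty acid transporter Cd36, at 1193 CPM in arterial-gene cells and 419 CPM in the others (1.51, 1.12 to 1.89). It was in 27 of 33 arterial-gene cells (81.8%) and in 72 of the other 143 (50.3%). Fabp4, a fatty acid binding protein, was at 8739 and 9675 CPM (-0.15), Sparc, a matrix protein, at 3064 and 2438 CPM (0.33), and Rgcc, a cell cycle regulator of capillary endothelium, at 1444 and 1791 CPM (-0.31). Fabp5, another fatty acid binding protein, was at 565 CPM in arterial-gene cells and 891 CPM in the others (-0.64, -1.14 to -0.20), short of 2-fold. Among 3 tested genes of the VEGF list, 2 of the Notch list and 1 of the venous list, Ephb4 at 213 and 149 CPM, none passed 2-fold. Few genes did in this comparison, with 4.43% of all 1353 lower and 2.14% higher.

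Over all genes, the highest ratios in arterial-gene cells after the 3 that chose them were those of Glul, glutamine synthetase, at 741 CPM against 151 CPM in the others (2.29, 1.73 to 2.86), and Mecom, a transcription factor, at 326 and 72.8 CPM (2.16, 1.32 to 3.02). Glul was in 22 of 33 arterial-gene cells (66.7%) and in 25 of the other 143 (17.5%), and Mecom in 17 (51.5%) and 20 (14.0%). Nudt4, Mast4, Efnb1, Cd36, Cald1, Tm4sf1, Kitl and Slc6a6 followed, at 1.94 to 1.38. Cald1, an actin-binding protein also abundant in smooth muscle, was at 0.36 without the mural-marker cells.

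The lowest were the globin genes Hbb-bs at -7.04 and Hba-a1 at -5.82, then Clu at -2.80. A single cell held 55.6%, 64.0% and 66.2% of their UMIs, so their ratios rested on few cells. Without the mixed cells they stood at -0.77, 0.58 and -0.57. That shift was built in, since these genes are among the erythroid and ductal markers that pick the mixed cells. Next were Odc1, which makes polyamines, at 25.1 CPM in arterial-gene cells and 160 CPM in the others (-2.36, -5.75 to -0.75), then Aplnr itself at -2.01. Eif4b, the acinar gene Spink1, Wnk1, Cd24a and Itga6 followed, at -1.88 to -1.65. For Spink1 a single cell held 32.6% of the UMIs, and its log2 ratio was -0.89 without the mural-marker cells. Odc1 was in 2 of 33 arterial-gene cells and in 36 of the other 143 (25.2%).

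The set was also divided by single genes, with the levels of the 10 genes and of a few genes picked from the lists. The division by Fbln5 largely repeats that by the arterial genes, since 19 of its 20 cells are arterial-gene cells. In the 20 cells with Fbln5, against the 156 without it, Cd36 was at 1660 and 442 CPM (log2 ratio 1.92) and Rgcc at 748 and 1836 CPM (-1.27). For Rgcc the other arterial genes gave smaller ratios, 0.03 (-0.22 to 0.26) by Gja4 and -0.29 (-0.58 to -0.02) by Sox17. Cd36 was at 0.91 by Gja4 and 1.12 by Sox17. In the 60 cells with Aplnr, against the 116 without it, Cxcl12 was at 567 and 1008 CPM (-0.82), Sox17 at 39.3 and 220 CPM (-2.40) and Gja4 at 56.2 and 224 CPM (-1.94), while Plvap was at 4365 and 3771 CPM (0.21). In the 99 cells with Car4, against the 77 without it, Rgcc was at 2135 and 1131 CPM (0.91), Gpihbp1 at 1740 and 1166 CPM (0.58) and Aplnr at 279 and 278 CPM (0.00). Car4 and Aplnr thus both ran against the arterial genes without running together: in cells with Aplnr, Car4 was at 697 CPM, against 788 CPM in those without it (-0.18, -0.51 to 0.16).

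The pathways of the 10 genes were represented beside them in the set. Of the VEGF list, 4 genes had 50 or more UMIs and were 2-fold higher than in other cells, as were 62.7% of all genes. The receptors Kdr and Flt1 were among those that chose the genes or the cells, which leaves the co-receptors Nrp1 (5.36, 4.99 to 5.77) and Nrp2 (5.33, 4.13 to 7.14), while Vegfa, the ligand, had 0 UMIs in the set and 30 UMIs in other cells. Of the lipid uptake list, besides Gpihbp1 itself, the genes Fabp4, Cd36 and Fabp5 were higher, and Lpl, the enzyme that Gpihbp1 carries, was lower, with 8 UMIs in the set and 254 in other cells (-2.71, -4.03 to -1.80). Apln, the ligand of Aplnr, had 10 UMIs in 6 set cells and none elsewhere. Of the Notch list, Notch1 at 168 CPM in the set and 16.6 CPM in other cells (3.33) and Hes1 at 269 and 64.2 CPM (2.07) were higher.

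Lists of vessel types were read against the 62.7% of all genes that were 2-fold higher in the set. Of 15 pan-endothelial genes with 50 or more UMIs, leaving out Kdr, all 15 were 2-fold higher, at a median log2 ratio of 7.25, as were all 9 of the capillary list at 5.36. Of 6 such arterial genes, 4 were higher, a share near that of all genes, Clu was lower, and Mgp was at -0.93. Of 2 such venous genes, Ephb4 was higher, with 68 UMIs in 51 set cells, and Bgn was at -0.41, in 14 set cells. Under the limit, the venous transcription factor Nr2f2 had 26 UMIs in 20 set cells (2.71, 1.80 to 3.67), and Ackr1, Selp, Vwf and Vcam1 had 1 to 3 UMIs each. Of the lymphatic list, Ccl21a was higher on 64 UMIs of a single cell, Flt4, a VEGF receptor also found in capillaries, had 23 UMIs in 20 set cells and 0 elsewhere, and Prox1 and Lyve1 had 1 UMI each.

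Beyond the 10 genes and the rule genes, the 15 highest ratios over other cells were those of Tie1, C130074G19Rik, Clic5, Col13a1, Thrsp, Mmrn2, Pcdh17, Adgrl4, Fabp4, Aqp1, Ushbp1, Unc45b, Emcn, Igfbp3 and Exoc3l2. Tie1, an endothelial receptor, had 109 UMIs in 78 set cells and 0 elsewhere. It was 166-fold higher with 3 counts assumed elsewhere, and the exact interval of its log2 ratio began at 7.05. Aqp1, a water channel, was at 1411 CPM in the set and 3.63 CPM in other cells (8.51, 7.55 to 9.92). The 10 genes were also ranked by this ratio among 2843 genes seen in at least 10% of set cells and above the 50-UMI limit. The 7 capillary genes ranked between 1 and 19, Sox17 ranked 44, Gja4 132 and Fbln5 346. The 10 genes had been chosen for high levels here and low levels elsewhere, so these ranks follow from the choice and test nothing. Rank 1 was Aplnr, which had 0 UMIs elsewhere, so its log2 ratio of 10.08 rests on the prior count. It was 179-fold higher with 3 counts assumed elsewhere.

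Across the 176 cells, the genes whose log-scaled levels ran most like each of the 10 were taken by Pearson's r among 3417 genes, as a description with all cells from 1 table. Rgcc was the nearest gene to Gpihbp1 (r = 0.45), Car4 (0.41), Kdr (0.40) and Cd300lg (0.30). Plvap was nearest to Igfbp7 (0.55), and Aplnr to Odc1 (0.38) and Cd34 (0.34). For the arterial genes, Fbln5 was nearest to Stmn2 (0.61) and Glul (0.52), Gja4 to Fbln5 (0.51) and Glul (0.45), and Sox17 to Stmn2 (0.50) and Fbln5 (0.43). Tcf15 had no gene at 0.3 or more. The values share the cells' depth and the low counts of each gene, and Fbln5, Sox17 and Gja4 were at 0 in most cells.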

How the data were processed

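Single cells were profiled with the 10x Genomics system and processed with Cell Ranger against build mm10, per the submitters' processing notes; versions are not given there. The authors deposited 1 table of UMI counts, 14793 gene rows by 728 cells, with values that are whole numbers. Rows of 4 repeated symbols were summed, which gave 14789 symbols and 2353008 UMIs (1004 to 53222 per cell). Barcodes end in 1 (667 cells) or 2 (61 cells), with no label tying an ending to a replicate, and 7 barcodes occurred under both (14 cells, 0 in the endothelial set). The cell filters of the authors are not known here.

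From these counts, levels were summed over cell groups and scaled to counts per 1e6 UMIs (CPM). Log2 ratios used a prior of 0.5 counts, a floor of 50 UMIs over both groups and a 2-fold rule, with exact 95% Poisson intervals of the ratio; shares carry Clopper-Pearson intervals. No replicate test was possible. Cells were thinned to 1000 UMIs with seed 0. Leiden clusters (scanpy 1.11.5; 2000 variable genes, 20 components, 15 neighbours, resolution 0.5) were named from marker lists. No doublet caller was run; 17 set cells with 3 or more UMIs of T or NK, B or plasma, macrophage or dendritic, mesenchymal, ductal or erythroid markers were left out in 1 alternative, and 19 with mural markers in another; acinar markers were in all set cells. Computation used Python 3.11.15, numpy 2.4.6, pandas 2.3.3 and scipy 1.17.1, and the ratio code was tested on simulated data. Gene positions come from GENCODE M21 (96.9% of symbols matched), promoters from RefSeq.

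The named genes were the 10 genes, the 15 highest ratios over other cells, the 10 highest and lowest ratios within the set (seen in 10% of the higher group, without ribosomal, mitochondrial and uncharacterised symbols), the 2 nearest genes by Pearson's r of 0.3 or more, and the most abundant genes of each list. Arterial genes under the floor were named after their values were seen. The 10 genes, the lists and the rules were chosen with earlier results of these data known.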

Additional observations from a re-analysis of the deposited data

How the results depend on the processing

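The results were recomputed under 14 alternatives: 2 or 5 rule UMIs, 1 or 3 arterial UMIs, thinning, 1 barcode ending, no shared barcodes, no mixed cells, no acinar markers in the totals, another prior, a floor of 20 UMIs or none, and, chosen after seeing the data, endothelial-like cells alone and no mural-marker cells. Of 330 values, 317 stayed within the counting interval of the value as reported (for counts, within 1.5 times, and for the median of all genes, within 0.1), 13 did not, and no ratio past 2-fold changed sign. Ratios near 0 within the set did change sign, among them Kdr up to 0.24, Tcf15 down to -0.01 and Cd300lg down to -0.08. Aplnr within the set ranged from -3.46 to -1.09. Some of the 317 could not move: the floor does not enter a ratio, and leaving out shared barcodes removed no set cell. Thinning to 1000 UMIs accounted for the main changes. It left 6 of the 10 genes counted as 2-fold higher in the set, because Aplnr (45 UMIs), Sox17 (28), Gja4 (37) and Fbln5 (19) fell under the floor, and it left 1 capillary gene, Car4, counted as 2-fold lower in arterial-gene cells, with Aplnr at -3.46 but under the floor. It moved the summed capillary genes to -0.53. Arterial-gene cells numbered 19 after thinning and 63 with 1 or more arterial UMIs. Depth limits the arterial genes most, with 165 UMIs in the set in all. No paired analysis was possible because cells are not tied to the replicates, and for the same reason no replicate could be left out.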

Other observations

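Some cells of the endothelial set carried RNA of other cell classes. The 5 erythroid markers held 7152 UMIs in the set, 4304 of them in 1 cell, and 4 cells held 3 or more. Of the 7 mural markers all were seen, with 207 UMIs in 32 cells, and in the 19 cells with 3 or more of them Rgs5 made up 120 of 188 UMIs. The 8 ductal markers held 270 UMIs, 201 of them in 1 cell. The 8 T or NK markers held 4 UMIs in 1 cell, and the 4 neutrophil markers held 0.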
